A study of Mus musculus with 10 samples.

Results

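The genes of major histocompatibility complex (MHC) class II presentation were followed through 10 mouse mammary tumours profiled by bulk RNA sequencing. The 10 members, of 26063 genes in the table, were taken by gene symbol, with no threshold on a measured value: H2-Aa, H2-Ab1, H2-Eb1, H2-DMa, H2-DMb1, H2-DMb2, H2-Oa, H2-Ob, Cd74 and Ciita. Female FVB/N mice that were 16IC/WT gave 5 tumour samples (16IC), and EIC/WT mice gave the other 5 (EIC), 1 sample per mouse. The titles do not say whether a sample is a single tumour, and each sample is called a tumour here. Both groups were on 2 mg/ml doxycycline, and tumours were collected at end point and flash frozen. The labels do not spell out 16IC, EIC or WT and do not give a promoter for any transgene or the age of the mice. ENPP1, a form of HER2 and an immune cold microenvironment are named in the title of the series. There was no tumour-free or untreated group.

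Class II molecules present peptides from engulfed and internalised proteins to CD4+ T cells. An alpha and a beta chain pair in the endoplasmic reticulum with the invariant chain Cd74, which blocks the peptide groove until proteases of the endosome cut it away. H2-DM, a non-classical class II heterodimer, then takes the remaining Cd74 fragment out and helps loading of peptides that bind well, and H2-DO restrains H2-DM. Dendritic cells, macrophages and B cells are known for constant class II expression, and many other cells, tumour cells included, can switch it on under interferon gamma. In both settings the transactivator Ciita is recruited by a complex of RFX, NF-Y and CREB proteins bound to a conserved pair of promoter motifs, the X box and the Y box.

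Total counts per tumour ran from 14813940 to 16947400. The tumours carried mammary epithelium, with a summed level of the epithelial marker list of 3905 to 5885 CPM (counts scaled to the size of the library by TMM) in 16IC and 4280 to 6695 CPM in EIC. Skeletal muscle markers varied widely and reached 2007 CPM in EIC 2. Since each sample is a bulk tumour, fewer cells of a type and less RNA per cell cannot be told apart in any value below. The numbers after the group names only tell the tumours apart.

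All positions are those of the table, on GRCm38. The MHC cluster on chromosome 17 runs from H2-Oa (ENSMUSG00000024334, plus strand, chr17:34092340-34095234) through H2-DMa (ENSMUSG00000037649, plus, chr17:34135182-34139101), H2-DMb2 (ENSMUSG00000037548, plus, chr17:34143307-34151553), H2-DMb1 (ENSMUSG00000079547, plus, chr17:34153072-34160230) and H2-Ob (ENSMUSG00000041538, plus, chr17:34238903-34245907). It goes on with H2-Ab1 (ENSMUSG00000073421, plus, chr17:34263209-34269418), H2-Aa (ENSMUSG00000036594, minus, chr17:34282744-34287827) and H2-Eb1 (ENSMUSG00000060586, plus, chr17:34305877-34316199). Ciita is ENSMUSG00000022504 (plus, chr16:10480059-10528418), and Cd74 lies outside the cluster.

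Promoter windows from RefSeq (GRCm38.p6, 250 bases before to 50 after each start) were at hand for 7 members. Shown are 5 stretches that hold a Y box, in 4 of them with a match to the searched X box letters. These are the motifs through which Ciita acts. The window of H2-Oa also holds a Y box, without a match to the searched X box, and is not shown. H2-Aa had no match to the searched X box either. Other forms of the X box were not searched, so a missing match does not mean a missing X box. Each stretch is 80 bases on the strand of its gene, 5′ to 3′. Capitals mark the searched letters, TGATTGG for the Y box, AACNNATG for the X box and, in H2-Aa, TGACGTCA, a CRE-like motif upstream of the Y box.
H2-Aa (minus strand, chr17:34287844-34287923): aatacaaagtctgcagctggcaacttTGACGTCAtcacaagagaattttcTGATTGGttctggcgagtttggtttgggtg
H2-Eb1 (plus strand, chr17:34305756-34305835): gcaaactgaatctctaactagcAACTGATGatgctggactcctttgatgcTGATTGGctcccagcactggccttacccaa
H2-DMb1 (plus strand, chr17:34153078-34153157): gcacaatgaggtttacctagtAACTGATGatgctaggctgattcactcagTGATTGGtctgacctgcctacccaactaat
H2-DMb2 (plus strand, chr17:34145107-34145186): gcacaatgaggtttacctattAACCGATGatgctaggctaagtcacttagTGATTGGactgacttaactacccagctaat
H2-Ob (plus strand, chr17:34238796-34238875): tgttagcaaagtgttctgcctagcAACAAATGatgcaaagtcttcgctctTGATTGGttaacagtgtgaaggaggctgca

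Positions of the motifs are relative to the start in RefSeq, which for H2-DMb1 and H2-DMb2 lies downstream of the gene start given in the table. The Y box started at position -50 in H2-Aa, -61 in H2-Eb1, -63 in H2-DMb1, -92 in H2-DMb2 and -59 in H2-Ob. From the start of the X box to the start of the Y box there were 28 bases in H2-Eb1, 29 in both H2-DMb genes and 26 in H2-Ob. H2-Oa held a Y box at -45 and no match to the letters of either other motif. The 2 windows of H2-DMa lie upstream of the gene as listed in the table and were not read as its promoter. On either strand, and whether or not it overlapped another motif, the Y box was in 7.82% of all 32851 promoter windows of the same length, the X box in 8.86% and the CRE-like motif in 1.79%. An X box followed by a Y box on 1 strand, 15 to 35 bases from start to start, was in 15 windows (0.0457%), among them those of H2-Eb1, H2-DMb1, H2-DMb2 and H2-Ob. The letters were settled after the sequences had been read, so these shares describe the windows and test nothing. The H2-DMb1 and H2-DMb2 stretches above are alike over most of their length, and the transcripts of these genes were 83.5% identical over 1413 aligned bases, with 27.2% of 50-base words shared. No source used here says how reads matching both were counted, so the split between H2-DMb1 and H2-DMb2 is uncertain, and their sum is used where it matters.

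Compared per length, on the authors' FPKM scale, levels spanned from Cd74 at 296 ± 182 FPKM to H2-Oa at 0.188 ± 0.170 FPKM (mean ± SD over the 10 tumours). H2-Ab1, at 38.5 ± 25.3 FPKM, followed Cd74, and then came H2-Aa at 13.4 ± 8.81, H2-DMa at 11.5 ± 12.9, H2-DMb1 at 10.5 ± 6.37 and H2-DMb2 at 10.2 ± 6.79 FPKM. H2-Eb1 (1.99 ± 1.98 FPKM) and Ciita (1.42 ± 1.33 FPKM) were lower, and H2-Ob stood at 0.349 ± 0.190 FPKM. Within each tumour Cd74 exceeded H2-Ab1 and H2-Ab1 exceeded H2-Aa in 10 of 10 tumours, by 2.99 ± 0.186 and 1.51 ± 0.249 on the log2 scale of FPKM. The neighbours H2-Aa, H2-DMa, H2-DMb1 and H2-DMb2 did not differ beyond the spread of their log2 ratios, nor did H2-Eb1 and Ciita. The other steps of the order went the same way in 10 of 10 tumours.

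The chains of I-A, the classical class II molecule, and the invariant chain had their highest levels in 16IC 1. H2-Ab1, the I-A beta chain, had 152, 101, 23.5, 54.8 and 79.7 CPM in 16IC 1 to 5, against 86.6, 20.4, 20.6, 43.6 and 63.9 CPM in EIC 1 to 5. H2-Aa, the I-A alpha chain, had 59.8, 41.2, 9.35, 18.1 and 29.9 CPM in the 16IC tumours, against 32.6, 10.9, 8.43, 13.7 and 34.0 CPM in the EIC tumours. Cd74 (ENSMUSG00000024610, plus, chr18:60803848-60812646) had 989.7, 571, 192, 325 and 579.9 CPM in 16IC, against 534, 169, 148, 287 and 477 CPM in EIC. For each of these genes 16IC 3, EIC 2 and EIC 3 were the lowest 3 tumours, and the groups overlapped. H2-Eb1, the beta chain of the second classical molecule I-E, had 8.70, 3.33, 0.790, 2.05 and 2.17 CPM in 16IC, against 2.71, 0.889, 1.37, 1.06 and 1.02 CPM in EIC. Its level in 16IC 1 was above every other tumour, and the rest of the groups overlapped.

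The genes of H2-DM, the peptide editor, were ordered differently over the tumours. H2-DMa, the alpha chain, had 78.3, 14.9, 7.11, 26.6 and 14.9 CPM in 16IC, against 10.6, 8.53, 8.67, 10.05 and 13.8 CPM in EIC. Here 4 of 5 16IC tumours lay above all EIC tumours, and 16IC 3 lay below them. H2-DMb1, a beta chain, had 37.3, 13.3, 17.1, 27.4 and 13.2 CPM in 16IC, against 7.45, 16.1, 14.5, 5.31 and 9.20 CPM in EIC. H2-DMb2, the other beta chain, had 44.2, 15.6, 21.0, 31.3 and 15.8 CPM in 16IC, against 9.53, 16.2, 12.4, 3.87 and 9.62 CPM in EIC. In both beta genes 16IC 1, 16IC 4 and 16IC 3 were the highest 3 tumours, and EIC 1, EIC 4 and EIC 5 were the lowest 3. The tumours lowest for H2-Ab1, namely 16IC 3, EIC 2 and EIC 3, all had more of both H2-DMb genes than EIC 1, EIC 4 and EIC 5.

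The genes of H2-DO, the inhibitor of H2-DM, were near the limit of detection. H2-Oa, its alpha chain, had 2, 11, 1, 3 and 2 counts in 16IC, against 12, 3, 2, 2 and 4 counts in EIC, and was the only member below the filter on low counts. An antisense gene, BC051537, covers 22.8% of its exon bases, and the strand setting of the counting is not given, so part of these counts may belong to that gene. H2-Ob, its beta chain, had 0.791, 2.49, 0.486, 1.44 and 1.35 CPM in 16IC, against 1.67, 0.711, 0.598, 0.749 and 1.02 CPM in EIC. EIC 1, highest for H2-Oa and second for H2-Ob, also had the highest summed level of B cell markers, 52.3 CPM, against 5.86 to 11.1 CPM in the other EIC tumours. In 16IC that sum was 5.68 to 15.8 CPM. 16IC 2, highest for H2-Ob and second for H2-Oa, had a B cell sum of 13.4 CPM and a plasma cell sum of 2.55 CPM. EIC 1 was also the highest tumour for summed markers of plasma cells (57.5 CPM), T cells (26.9 CPM) and lymph node stroma (7.80 CPM, with EIC 4 at 5.06 CPM). A B cell score was the mean log2 CPM of 13 genes, of which 2 passed the filter on low counts. Over the 10 tumours its Pearson's r was 0.36 with H2-Ob (permutation p = 0.287) and 0.60 with H2-Oa (permutation p = 0.0994). Without 16IC 5 and EIC 1, the farthest tumours on this score, r was -0.13 and 0.04. Whether these cells gave the H2-DO counts was not tested.

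Ciita, the transactivator, had 49.3, 12.4, 6.32, 10.2 and 11.1 CPM in 16IC 1 to 5, against 15.6, 4.39, 9.44, 9.55 and 10.04 CPM in EIC 1 to 5. The level in 16IC 1 stood far above the rest, and the other 9 tumours overlapped. The gene Dexi overlaps 3.45% of the exon bases of Ciita on the opposite strand.

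**Figure D1:**
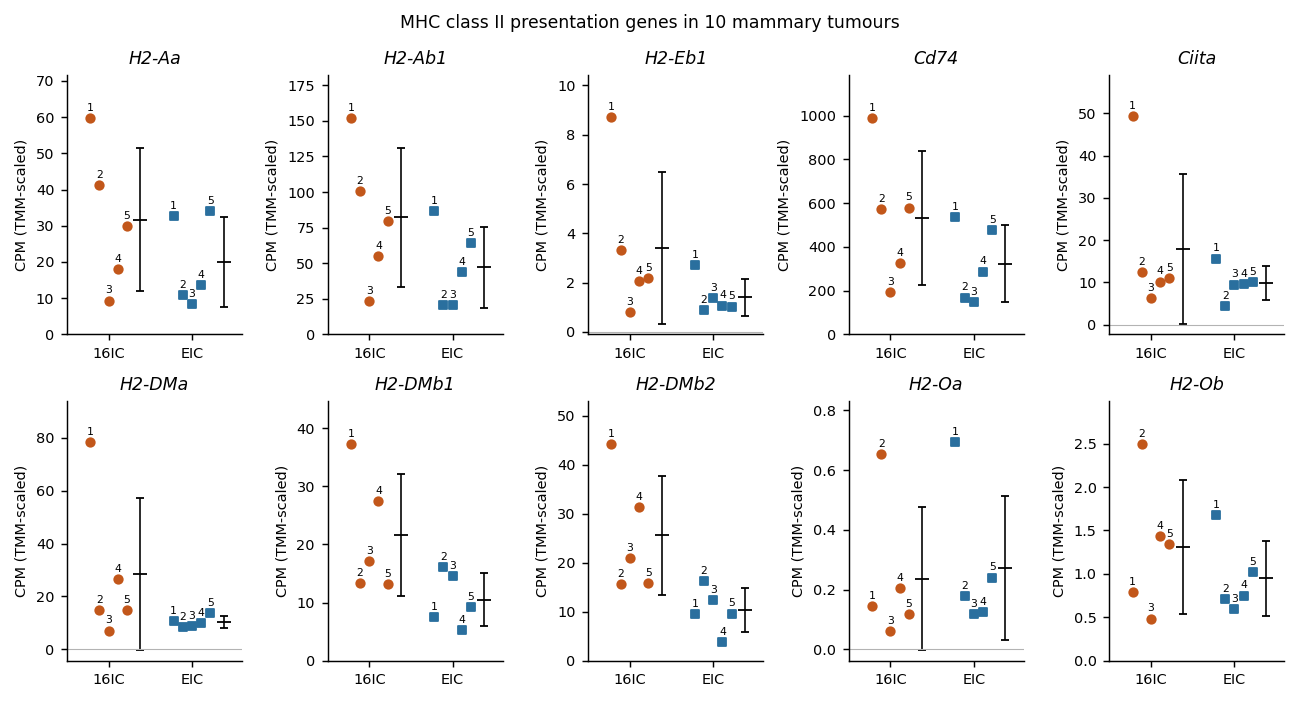
Level of each of the 10 members in CPM (linear axes, 1 panel per gene), with 16IC tumours left and EIC tumours right, points numbered by tumour and black bars for the mean ± SD (n = 5 each). 16IC 1 stands above the other tumours for Ciita (49.3 CPM) and H2-DMa (78.3 CPM), and in each panel the groups overlap.

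Set against EIC, every tested member had a higher fitted level in 16IC, and none passed the test. The log2 difference of 16IC over EIC from edgeR's quasi-likelihood test was above 0 in 9 of 9 tested members, with a median of 0.86, while 47.7% of all 14915 tested genes were above 0, with a median of -0.02. The members were read in the same tumours, and some went closely together. Pearson's r was 0.98 for H2-Aa with Cd74 and 0.97 for H2-DMb1 with H2-DMb2. They are therefore not 9 independent results, and the same holds for counts of genes in the lists below. The adjusted p (Benjamini-Hochberg over all genes) passed 0.05 for 0 members and for 0% of all genes. An unadjusted p under 0.05 was reached by 3 of 9 members, the DM genes, and by 13.1% of all genes. By DESeq2, where 354 genes passed, the lowest adjusted p of a member was 0.0677.

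H2-DMa and H2-DMb2 had the largest differences, followed by H2-Eb1 (log2 difference 1.26) and then H2-DMb1. H2-DMa averaged 28.4 ± 28.8 CPM in 16IC and 10.3 ± 2.12 CPM in EIC (SD, n = 5 each), a log2 difference of 1.46 (SE 0.56, adjusted p = 0.332 by edgeR). H2-DMb2 averaged 25.6 ± 12.2 CPM in 16IC and 10.3 ± 4.51 CPM in EIC, a log2 difference of 1.31 (SE 0.40, adjusted p = 0.288 by edgeR). H2-DMb1 averaged 21.7 ± 10.5 CPM in 16IC and 10.5 ± 4.61 CPM in EIC, with a log2 difference of 1.04 (95% interval 0.18 to 1.90). H2-DMb2 has a log2 fold change of 1.31 and an adjusted p of 0.0650 in the authors' deposited table, and H2-DMa has 1.46 and 0.135.

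For the classical chains and Cd74 the intervals included 0. H2-Eb1 averaged 3.41 ± 3.09 CPM in 16IC and 1.41 ± 0.749 CPM in EIC, with an interval of the log2 difference from -0.07 to 2.59. H2-Ab1 averaged 82.2 ± 48.6 CPM in 16IC and 47.0 ± 28.6 CPM in EIC, with an interval from -0.36 to 1.97. Cd74 averaged 532 ± 305 CPM in 16IC and 323 ± 176 CPM in EIC, with an interval from -0.35 to 1.78. Each mean was higher in 16IC by less than the SD of the 16IC tumours. The interval was -0.52 to 1.85 for H2-Aa, -0.60 to 1.52 for H2-Ob and -0.36 to 2.09 for Ciita. No member's groups were free of overlap, which 2.59% of all genes were.

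Part of these differences rested on 16IC 1. Without 16IC 1 the log2 difference was 0.03 for Ciita, 0.30 for H2-Aa, 0.36 for Cd74 and 0.46 for H2-Ab1. The DM genes had larger ones, with 0.63 for H2-DMa, 0.77 for H2-DMb1 and 1.02 for H2-DMb2. The median over the 9 members was then 0.56, and 9 of 9 stayed above 0.

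Markers of antigen-presenting cells mostly had lower fitted levels in 16IC, and none passed. Of 23 macrophage and monocyte genes, 5 had a log2 difference above 0, with a median of -0.32, and of 9 tested dendritic cell genes (16 in the list) 1 did, with a median of -0.18. The summed macrophage list ran from 638 to 2025 CPM in 16IC and from 853 to 2005 CPM in EIC, led by Cd14, Lyz2 and Mpeg1. The dendritic cell list summed to 39.4 to 81.9 CPM in 16IC and 37.6 to 94.7 CPM in EIC, led by Irf8, Itgax and Clec10a, and its markers Flt3, Clec9a and Ccl22 stayed under 1 CPM in every tumour. The median log2 difference of the 9 members was 1.30 with a score for these cells as a covariate and 0.72 with the interferon score as a covariate. It was 0.55 by limma's voom with quality weights, and 9 of 9 were above 0 in each of these fits.

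**Figure D2:**
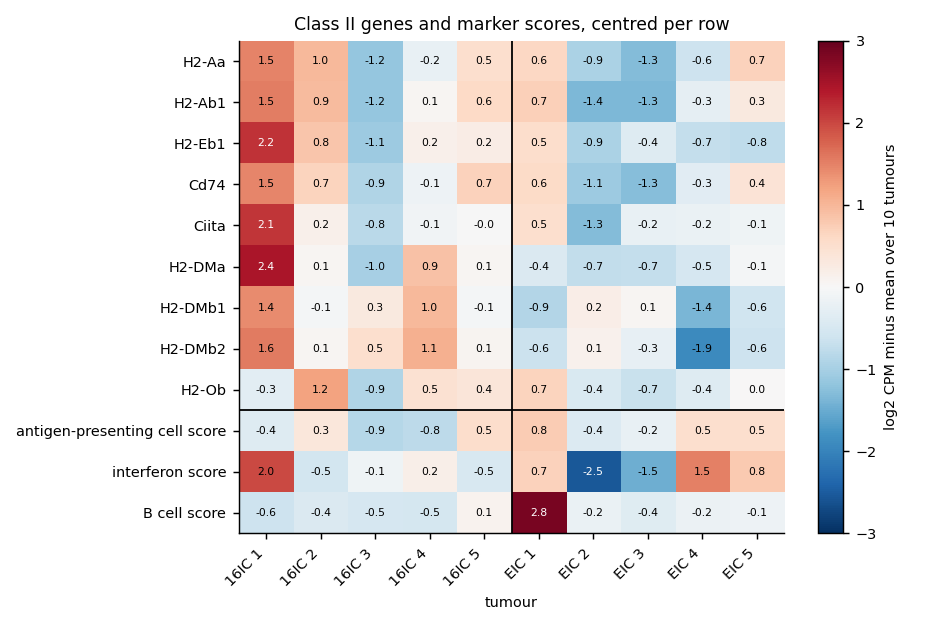
Log2 CPM minus its mean over the 10 tumours (colour scale) for the 9 tested members and for the antigen-presenting cell, interferon and B cell scores, with the 16IC tumours left and the EIC tumours right. The H2-DMb genes are high in 16IC 1, 16IC 3 and 16IC 4, whereas H2-Aa, H2-Ab1 and Cd74 are low in 16IC 3, EIC 2 and EIC 3.

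Whether class II followed Ciita was asked in a fit with genotype and the log2 CPM of Ciita as terms, where a slope of 1 means that a doubling of Ciita goes with a doubling of the gene. The classical chains, Cd74 and H2-DMa had slopes near 1. The slope was 0.98 for H2-Eb1 (SE 0.19), 0.88 for H2-Ab1 (SE 0.22), 0.83 for H2-DMa (SE 0.18), 0.81 for H2-Aa (SE 0.25) and 0.77 for Cd74 (SE 0.20). By edgeR none passed after adjustment (adjusted p 0.565 to 0.616), and 0% of all genes did. An unadjusted p under 0.05 was reached by 5 of the 8 members tested, those 5, and by 7.48% of all genes. DESeq2 called 212 of 26062 genes (0.813%), a base that includes the low-count genes left out by edgeR. Among the called genes were H2-Eb1 (DESeq2 adjusted p = 1.7e-04), H2-Ab1 (0.0146), H2-DMa (0.0153) and Cd74 (0.0349).

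The H2-DMb genes and H2-Ob had slopes nearer to 0, and the difference from the other members was not tested. The fitted value was 0.14 for H2-DMb1 (95% interval -0.34 to 0.63), 0.16 for H2-DMb2 (-0.34 to 0.65) and 0.19 for H2-Ob (-0.62 to 1.004). Without 16IC 1, the slopes were -0.54 for H2-DMb1 and -0.43 for H2-DMb2, while that of H2-Ob was 0.95, of H2-Ab1 1.37 and of H2-DMa 0.45. No member passed the threshold by edgeR in that fit.

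The correlation of log2 CPM with Ciita over the 10 tumours gave a like order. Pearson's r was 0.92 for H2-Eb1 (permutation p = 1.9e-04, adjusted p = 0.432, rho = 0.927 with p = 5.2e-04) and 0.83 for H2-Ab1 (permutation p = 9e-05, adjusted p = 0.432, rho = 0.964 with p = 1.1e-04). After the tumours farthest from the median of Ciita, 16IC 1 and EIC 2, were left out, r was 0.83 for H2-Eb1 and 0.79 for H2-Ab1. Over all 10 tumours r was 0.82 for Cd74 (permutation p = 9.7e-04, adjusted p = 0.477) and 0.78 for H2-Aa (permutation p = 0.00154, adjusted p = 0.477), and 0.72 and 0.74 without those tumours. For H2-DMa it was 0.84 (permutation p = 0.00819, adjusted p = 0.545) with a rho of 0.818 (p = 0.00595). Without those tumours its r was 0.39 (exact permutation p = 0.325, n = 8), so that the linear relation rests on them. For H2-DMb1 it was 0.35 (permutation p = 0.328), with a rho of -0.03, and for H2-DMb2 it was 0.37 (permutation p = 0.278), with a rho of 0.07. H2-Ob had an r of 0.25 (permutation p = 0.509) but a rho of 0.758 (p = 0.0152), and an r of 0.81 without 16IC 1 and EIC 2 (exact permutation p = 0.0113, n = 8). None of these passed after adjustment, and 0% of all genes did.

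Between members, H2-Aa went closely with its partner chain and with Cd74. Over 10 tumours H2-Aa had an r of 0.97 with H2-Ab1 (permutation p = 2e-05, adjusted p = 0.0559) and of 0.98 with Cd74 (permutation p = 3e-05, adjusted p = 0.0559), and without the farthest tumours, 16IC 1 and EIC 3, of 0.94 and 0.96. Its r with H2-Eb1 was 0.79 (permutation p = 0.00473, adjusted p = 0.245), with H2-DMa 0.71 (permutation p = 0.00959, adjusted p = 0.288), and with H2-DMb1 0.15 (permutation p = 0.681). Over all members and measures 48 such relations were computed, and each p was adjusted over all tested genes.

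Whether class II followed antigen-presenting cells was asked with a score, the mean log2 CPM of the tested genes of the macrophage and dendritic cell lists, which hold no class II gene. The score averaged 3.51 (range 2.89 to 4.27) in 16IC and 3.97 (3.34 to 4.52) in EIC, on the log2 scale. Its values left a gap, with 16IC 1, 16IC 3, 16IC 4, EIC 2 and EIC 3 at 3.52 or below and the other 5 tumours at 4.08 or above. A relation with the score therefore rests on the step between these tumours, and no correlation coefficient is given for it. Relations within either set of 5 tumours were not tested.

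Fitted beside genotype, the slope on this score was positive for I-A, Cd74 and H2-Ob and negative for the H2-DMb genes. A step of 1 in the score went with a log2 change of 1.23 in H2-Ab1 (SE 0.45, adjusted p = 0.0855 by edgeR), 1.15 in H2-Aa (SE 0.48, adjusted p = 0.123), 1.09 in Cd74 (SE 0.41, adjusted p = 0.0918) and 0.90 in H2-Ob (SE 0.38, adjusted p = 0.128). For H2-DMb1 the slope was -0.88 (SE 0.28, adjusted p = 0.0540 by edgeR), and for H2-DMb2 it was -0.77 (SE 0.32, adjusted p = 0.124). H2-Eb1 (0.52, SE 0.64), Ciita (0.45, SE 0.64) and H2-DMa (-0.10, SE 0.66) had slopes smaller than their errors. No member passed, while 18.8% of all genes did.

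The calls turned on 16IC 1 and on the tool. Without 16IC 1, where 18.2% of all genes passed, H2-Ab1 (slope 1.33, adjusted p = 0.0132 by edgeR), H2-Aa (1.30, adjusted p = 0.0207) and Cd74 (1.20, adjusted p = 0.00877) passed upward and H2-DMb1 (-0.79, adjusted p = 0.0410) passed downward. Without 16IC 3, where 12.7% of all genes passed, H2-DMb1 passed alone among the members (-1.12, adjusted p = 0.0219 by edgeR). DESeq2 on all 10 tumours passed the same 4 as edgeR without 16IC 1. Its adjusted p was 0.0131 for H2-Ab1, 0.0336 for H2-Aa, 0.0203 for Cd74 and 0.0187 for H2-DMb1. DESeq2 called 3986 of 26024 genes (15.3%), a base that includes low-count genes. By edgeR on all 10 tumours, after its filter, 2793 of 14883 genes passed (18.8%), so these shares are not on the same base. The share of all genes that went with this score was high, and markers of other cells went with it too. The slope passed for 4 of 4 adipocyte genes, 3 of 5 fibroblast genes, 7 of 8 genes of leukocytes in general, 2 of 2 tested plasma cell genes, 1 of 2 tested B cell genes and 2 of 8 mammary epithelium genes. Summed adipocyte markers ran from 0.182 to 83.6 CPM in 16IC and from 1.67 to 65.9 CPM in EIC, and the part of these cells in the result was not tested.

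The difference between the I-A chains and the H2-DMb genes can be read per tumour as the log2 ratio of summed H2-DMb1 and H2-DMb2 to H2-Aa counts, which does not depend on library scaling. It was 0.45, -0.51, 2.01, 1.70 and -0.04 in 16IC 1 to 5, against -0.94, 1.55, 1.66, -0.57 and -0.85 in EIC 1 to 5. In order of rising score, from 16IC 3 over 16IC 4, EIC 2, 16IC 1 and EIC 3 to 16IC 2, EIC 4, EIC 5, 16IC 5 and EIC 1, it was 2.01, 1.70, 1.55, 0.45, 1.66, -0.51, -0.57, -0.85, -0.04 and -0.94. The genes of this ratio were chosen after their opposite slopes on the score had been seen, so its values describe those slopes and support nothing further.

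**Figure D3:**
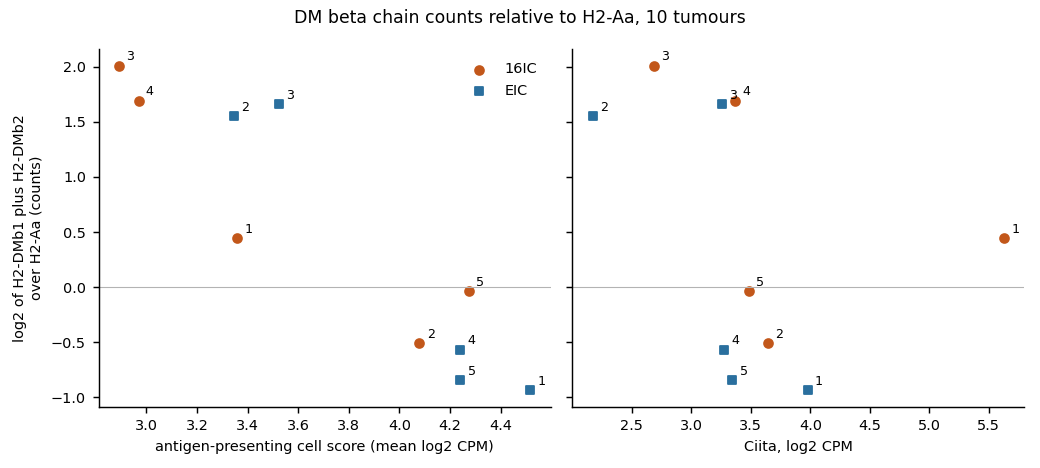
Log2 ratio of summed H2-DMb1 and H2-DMb2 to H2-Aa counts per tumour (vertical axes) against the antigen-presenting cell score and against log2 CPM of Ciita (horizontal axes), 16IC and EIC marked by colour, points labelled by tumour. The ratio was highest in 16IC 3 (2.01) and lowest in EIC 1 (-0.94), the tumours with the lowest and the highest score, and its genes were chosen with their slopes on the score known.

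Whether class II followed interferon genes was asked with the mean log2 CPM of interferon-inducible genes that hold no MHC gene. This score averaged 4.99 (range 4.25 to 6.77) in 16IC and 4.59 (2.25 to 6.30) in EIC. Its slope beside genotype was positive for Ciita, at 0.50 (SE 0.15, adjusted p = 0.352 by edgeR), for H2-Ab1 at 0.46 (SE 0.17), for Cd74 and H2-DMa at 0.41 each (SE 0.15 and 0.17), for H2-Aa at 0.39 (SE 0.19) and for H2-Eb1 at 0.37 (SE 0.21). It was -0.09 for H2-DMb1, -0.07 for H2-DMb2 and 0.02 for H2-Ob. No member passed, and 0.417% of all genes did. Without 16IC 1, the tumour with the highest score, the slope was 0.26 for Ciita, 0.15 for H2-DMa and 0.11 for H2-Eb1, and it was 0.43 for H2-Ab1, 0.36 for Cd74 and 0.33 for H2-Aa.

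Across tumours Ciita had an r of 0.71 with the interferon score (permutation p = 0.0228, adjusted p = 0.527, rho = 0.503 with p = 0.143) and of 0.12 without 16IC 1 and EIC 2, so that this relation rests on those tumours. The r of H2-Ab1 was 0.66 (permutation p = 0.0369) and that of Cd74 0.65 (permutation p = 0.0393), and 0.30 and 0.31 without them. H2-DMb1 had an r of -0.08 (permutation p = 0.836).

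**Figure D4:**
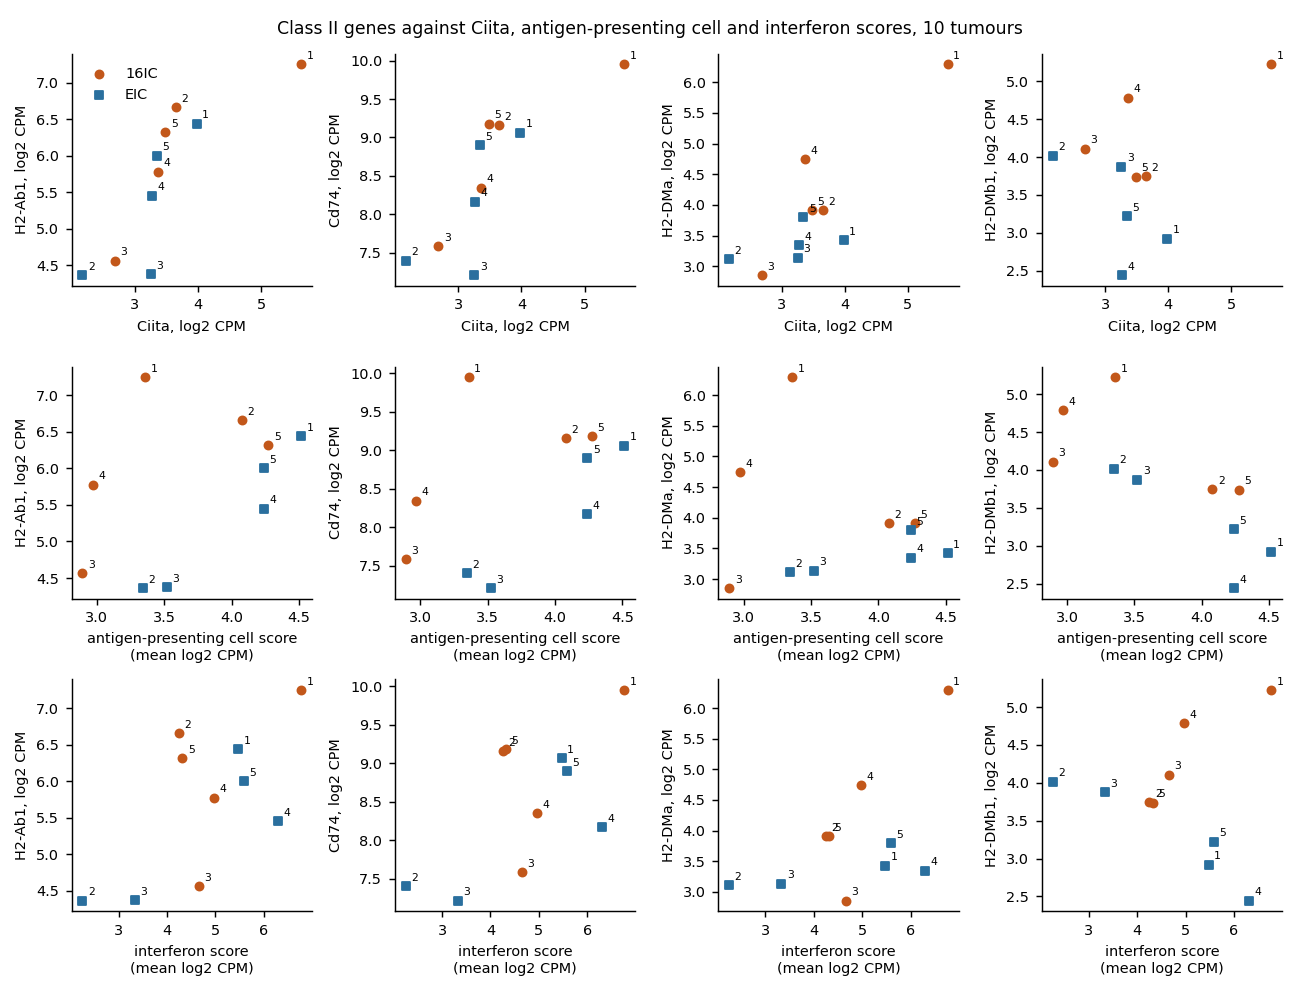
Log2 CPM of H2-Ab1, Cd74, H2-DMa and H2-DMb1 (vertical axes) against log2 CPM of Ciita, the antigen-presenting cell score and the interferon score (horizontal axes), 1 point per tumour, 16IC and EIC marked by colour. H2-Ab1 and Cd74 are higher where Ciita is higher (r = 0.83 and 0.82), H2-DMb1 is lower at high antigen-presenting cell scores, and 16IC 1 lies at the far right for Ciita and the interferon score.

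With genotype and both scores in 1 fit, I-A and Cd74 had positive slopes on both scores and the H2-DMb genes negative ones on the antigen-presenting cell score. The scores differ in spread, so slopes are not compared between them. The antigen-presenting cell slope, which passed for 17.4% of all genes, was 0.91 for H2-Ab1 (adjusted p = 0.0868 by edgeR), 0.88 for H2-Aa, 0.79 for Cd74 and 0.98 for H2-Ob, and it was 0.03 for Ciita. It was -0.92 for H2-DMb1 (adjusted p = 0.0734 by edgeR), -0.81 for H2-DMb2 and -0.51 for H2-DMa. The interferon slope, which passed for 0.647% of all genes, was 0.50 for Ciita, 0.47 for H2-DMa, 0.36 for H2-Eb1, 0.35 for H2-Ab1, 0.31 for Cd74 and 0.30 for H2-Aa, and 0.04 and 0.05 for H2-DMb1 and H2-DMb2. No member passed in this fit over all tumours. Without 16IC 1 (13.3% of all genes passing) H2-Ab1 (1.18, adjusted p = 0.0351 by edgeR) and Cd74 (1.09, adjusted p = 0.0253) passed on the antigen-presenting cell score, and without 16IC 3 (12.5% of all genes) H2-DMb1 did (-1.15, adjusted p = 0.0303).

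**Figure D5:**
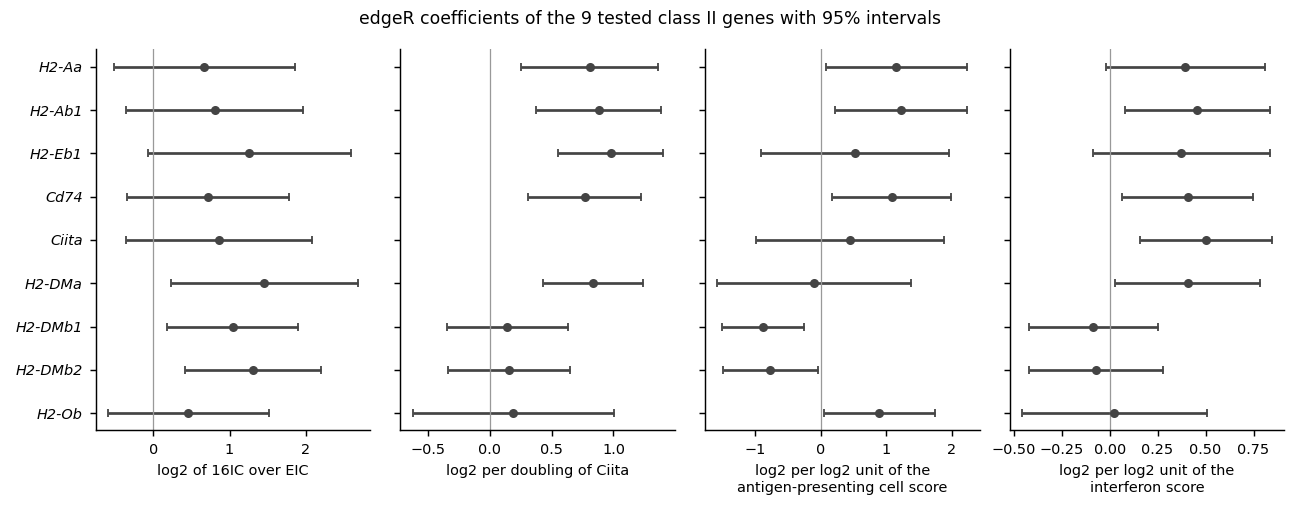
Coefficients of edgeR (log2, horizontal axes) with 95% intervals for the 9 tested members, for 16IC over EIC and for the slopes on Ciita, the antigen-presenting cell score and the interferon score, each beside genotype. The H2-DMb genes lie left of 0 for the antigen-presenting cell score (-0.88 and -0.77) and near 0 for Ciita (0.14 and 0.16), where H2-Ab1 lies at 1.23 and 0.88.

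Of 7 ratios between members within a tumour, which do not depend on library scaling, none passed between genotypes after adjustment. The log2 ratio of H2-Aa to H2-Ab1 differed by -0.16 between 16IC and EIC (exact permutation p = 0.333), and that of Cd74 to H2-Ab1 differed by -0.09 (exact permutation p = 0.460). H2-DO to H2-DM averaged -5.49 in 16IC and -4.62 in EIC (exact permutation p = 0.246). H2-DMb2 to H2-DMb1 averaged 0.24 ± 0.04 in 16IC and -0.05 ± 0.30 in EIC (SD, n = 5), a difference of 0.29 with an exact permutation p of 0.0476, which was 0.333 adjusted over the 7 ratios. This ratio was added after the values had been seen, and reads shared between both genes bear on it.

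The factors that bring Ciita to the promoter had similar summed levels in both groups. The 7 enhanceosome genes, Rfx5, Rfxap, Rfxank, Creb1, Nfya, Nfyb and Nfyc, summed to 214 to 286 CPM in 16IC and 247 to 282 CPM in EIC, and 3 of 7 had a log2 difference above 0. Nfyc, a subunit of the Y box binding factor NF-Y, was the one that passed in a fit, with a slope of 0.65 on the antigen-presenting cell score (adjusted p = 0.0435 by edgeR). On that score 18.8% of all genes passed, and 9.64% passed upward. With the interferon score also in the fit, Nfyc did not pass (adjusted p = 0.0547 by edgeR). None of the 7 passed on Ciita or on the interferon score.

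Of the 8 genes of Cd74 cleavage and antigen processing, 3 passed upward on the antigen-presenting cell score, on which 9.64% of all genes did. They were Ctsd (slope 1.14, adjusted p = 0.00506 by edgeR), an aspartic protease of lysosomes, Ctss (0.92, adjusted p = 0.00699), the protease that cuts Cd74 in antigen-presenting cells, and Lgmn (0.50, adjusted p = 0.0101), an asparaginyl endopeptidase. With the interferon score in the fit, Ifi30, a lysosomal thiol reductase (-1.37, adjusted p = 0.0161 by edgeR), and Ctsh, an aminopeptidase (-0.75, adjusted p = 0.0300), passed downward on the antigen-presenting cell score, as 8.15% of all genes did. Ifi30 had 178, 54.6, 158, 308 and 51.6 CPM in 16IC 1 to 5, against 62.7, 97.1, 60.7, 62.1 and 106 CPM in EIC 1 to 5. Its 3 highest tumours, 16IC 4, 16IC 1 and 16IC 3, were also the highest for both H2-DMb genes. Ctsh had 432, 215, 331, 481 and 162 CPM in 16IC, against 208, 190.3, 211, 149 and 179.6 CPM in EIC, with the same 3 tumours on top.

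Of 5 genes of class II turnover and co-stimulation, Cd80 (slope 1.09, adjusted p = 0.0480 by edgeR) and Cd86 (0.87, adjusted p = 0.0408), the co-stimulatory ligands for CD28, passed upward on the antigen-presenting cell score, against the same 9.64% of all genes. March8, a ubiquitin ligase, had the smallest p of the list between genotypes, with a log2 difference of 0.32 (adjusted p = 0.350 by edgeR). Of the other class II loci, H2-Ea-ps had a log2 difference of 0.49 and did not pass, and H2-Eb2 stayed at 0.693 CPM or below.

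MHC class I genes, which present peptides to CD8+ T cells, also had higher fitted levels in 16IC. Of 10 class I genes 10 had a log2 difference above 0, against 47.7% of all genes, with a median of 0.55, and none passed. The summed list had a lower median tumour in 16IC (4767 CPM, range 2742 to 20294) than in EIC (6323 CPM, range 1290 to 8118). The highest tumour was 16IC 1, and the dependence of the class I differences on it was not tested. On the interferon score 6 of 10 passed upward, against 0.39% of all genes, among them Nlrc5, the class I counterpart of Ciita (slope 1.29, adjusted p = 0.00170 by edgeR). Ifng, the gene of interferon gamma itself, had counts in EIC 5 alone, at 0.18 CPM.

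The non-member genes most like the class II members were named by Pearson's r, over the 10 tumours, with the mean log2 CPM of the 8 tested members other than Ciita, among 12051 genes. The 10 closest were Zfp518a (r = 0.94), Syvn1 (0.92), Acsl1 (0.92), Tmem104 (0.91), Tmbim1 (0.91), Vps33b (0.90), Snap29 (0.90), Mon1a (0.89), Tmem50b (0.89) and Cd24a (0.88). Ciita had an r of 0.84 with that mean. Zfp518a averaged 22.8 CPM in 16IC and 16.2 CPM in EIC, and Acsl1, a long-chain acyl-CoA synthetase, averaged 147 CPM in 16IC and 61.2 CPM in EIC. That mean joins members that went apart, such as H2-Aa and H2-DMb1 (r = 0.15), and holds both H2-DMb genes. A gene close to the mean need not be close to each member. The points share their libraries, and no test was made.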

How the data were processed

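Per the labels, mammary tumours were flash frozen, and the Qiagen RNeasy Mini (RNA) and NEBNext Ultra II (libraries) kits were used. The tools in the submitters' processing notes are HTSeq, STAR, Trimmomatic, limma and edgeR, and the build is GRCm38 (mm10). Versions, annotation release, strand setting and handling of multi-mapped reads were not given in the sources used here. The deposited table gives raw counts per gene, which all tests use. The normalized count signal deposited by the authors, counts times 1 factor per library, was used for checks only. The authors' FPKM values served for levels between genes. The log2 fold changes and p-values deposited by the authors are quoted as theirs.

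Counts were TMM-scaled and tested with edgeR 4.0.16 (limma 3.58.1, R 4.3.3; quasi-likelihood, robust, filterByExpr with minimum count 10), adjusted by Benjamini-Hochberg over all tested genes at 0.05. Of 26063 genes 14915 were tested, H2-Oa not among them. The median coefficient of variation between tumours was 33.6% over the tested genes. H2-Oa (1 to 12 counts) and H2-Ob (8 to 42 counts) are also limited by counting error. Slopes are on centred log2 CPM (prior count 2) or scores. Genes that make up a score or are the x measure are not counted. Correlations were tested with 100000 permutations (smallest possible p 1e-05), and ratios (2 added to each count sum) over all 252 arrangements (smallest possible p 0.00794). The fit was tested on simulated data. FVB/N reads met a C57BL/6J reference, and the effect on MHC genes was not tested. DESeq2 1.42.0, total-count scaling, no filter, other scores and leaving out each tumour were alternatives.

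All members were named. From the pathway lists, genes past the threshold in a fit were named, otherwise those with the smallest p between genotypes. Members and lists were chosen with earlier results of these data known. The labels give no batch, and tumour numbers follow sample order.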

Additional observations from a re-analysis of the deposited data

Results flagged for a closer look

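The 5 tumours of each genotype were searched for one far from the other 4, in the CPM of the 10 members, 3 scores and 7 ratios. Of these 40 groups 8 held one, by Dixon's gap over range above 0.71. The groups share tumours and are not independent, so no number expected by chance is given. In 16IC 1, Ciita was at 49.3 CPM (others 6.32 to 12.4), H2-DMa at 78.3 CPM (others 7.11 to 26.6) and the interferon score at 6.77 (others 4.25 to 4.97). In EIC 1, H2-Eb1 was at 2.71 CPM (others 0.889 to 1.37), H2-Oa at 0.693 CPM (others 0.120 to 0.241) and the B cell score at 1.58 (others -1.63 to -1.41). H2-Oa also stood apart at 0.653 CPM in 16IC 2 (others 0.0607 to 0.205), and the B cell score at -1.15 in 16IC 5 (others -1.87 to -1.70). The values of H2-Oa rest on 11 counts in 16IC 2 and 12 in EIC 1. The B cell score averages 13 genes, of which 2 passed the filter on low counts, so it rests largely on genes with few counts.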

How the results depend on the processing

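No paired analysis was possible because tumour numbers follow sample order and pair nothing. Of 902 values of members in the fits under alternatives, 849 kept direction and side of the threshold, 32 reversed and 21 passed it newly. The count of genes past the threshold went to 354 with DESeq2 and 1 with the antigen-presenting cell score as covariate for 16IC over EIC, to 212 with DESeq2 and 1 without a filter for Ciita, to 297 with DESeq2 for the interferon score and to 399 with DESeq2 for that score in the fit with both. Leaving out single tumours gave 0 to 2 for 16IC over EIC (1 without EIC 1, 2 without EIC 2), and 1399 to 2974 on the antigen-presenting cell score (1399 without 16IC 2, 1669 without 16IC 5). It gave 30 to 62 on the interferon score (30 without 16IC 1 and without EIC 2). With both scores it gave 582 to 3027 (582 without 16IC 5, 609 without 16IC 2, 1682 without 16IC 4) and 32 to 127 (51 without 16IC 1, 45 without 16IC 2, 32 without 16IC 5). On the antigen-presenting cell score H2-DMb1 also passed with total-count scaling (adjusted p = 0.0422) and with no genotype term (adjusted p = 0.0250), both by edgeR. The cause was not tested.

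Some signs turned. With no genotype term, slopes on the antigen-presenting cell score were -0.19 for H2-Eb1 and -0.16 for Ciita, and -0.074 and -0.12 with both scores, and the interferon slope was 0.10 for H2-DMb1 and 0.15 for H2-DMb2. With the gamma-type list as score it was 0.0053 for H2-DMb2. With total-count scaling and both scores it was -0.0095 for H2-DMb1 and -0.0025 for H2-DMb2. Without the farthest tumours r was -0.33 for H2-DMb1 and -0.20 for H2-DMb2 with Ciita, -0.23 for H2-DMb1 with H2-Aa (-0.10 centred within genotype) and -0.13 for H2-Ob with the B cell score. Leaving out single tumours, slopes on Ciita ran from -0.54 to 0.34 for H2-DMb1, -0.43 to 0.38 for H2-DMb2 and -0.043 to 0.95 for H2-Ob, slopes on the antigen-presenting cell score from -0.50 to 0.34 for H2-DMa, and slopes on the interferon score from -0.30 to 0.046 for H2-DMb1, -0.29 to 0.090 for H2-DMb2 and -0.11 to 0.16 for H2-Ob. With both scores the first ran from -0.25 to 0.53 for Ciita and -0.11 to 0.86 for H2-Eb1, and the second from -0.085 to 0.48 for H2-Eb1, -0.16 to 0.14 for H2-DMb1 and -0.17 to 0.18 for H2-DMb2. r ran from -0.36 to 0.46 for H2-DMb1 and -0.23 to 0.46 for H2-DMb2 with Ciita, from -0.26 to 0.26 for H2-DMb1 with H2-Aa and from -0.57 to 0.21 with the interferon score. Mean differences in log2 ratio to H2-Ab1 ran from -0.12 to 0.39 for H2-Eb1 and -0.072 to 0.44 for H2-DMa, and that of H2-DMb to H2-DMa from -0.13 to 0.46. H2-Oa and H2-Ob are limited by depth.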

Other observations

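Within the interferon-inducible genes, those known mainly for interferon gamma had a median difference above 0, and those of the general interferon response had one below 0. Of 17 gamma-type genes 14 had a log2 difference of 16IC over EIC above 0, with a median of 0.74, and of 26 general genes 11 did, with a median of -0.10. The summed gamma-type list was 6558, 511, 656, 1643 and 525 CPM in 16IC 1 to 5, against 1031, 167, 240.1, 1734 and 1159 CPM in EIC 1 to 5. 16IC 1 was the highest and the groups overlapped, as they did for all class II members. The median tumour of this sum was at 656 CPM in 16IC and 1031 CPM in EIC, the other direction from the fitted median. Of all tested genes 47.7% had a log2 difference above 0, and the dependence of the list on 16IC 1 was not tested. The difference between the lists was not tested.

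The list of NK and cytotoxic cells, with 3 of 8 genes tested, summed to 26.7, 3.21, 5.34, 12.6 and 2.52 CPM in 16IC 1 to 5, against 7.28, 0.178, 0.717, 1.498 and 3.31 CPM in EIC 1 to 5. Its 2 highest tumours, 16IC 1 and 16IC 4, were also the highest for H2-DMa. Leukocyte markers in general had 0 of 8 genes above 0, with a median log2 difference of -0.51.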
